A study of Mus musculus with 6 samples.

Results

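The genes described here are 36 mouse genes of the ATF4 and amino acid response, taken from a fixed list of names. No cut on measured values picked them, but the list was chosen with earlier results of these data known. They comprise 10 genes grouped as regulators, 10 enzymes of amino acid and one-carbon synthesis, 8 amino acid transporters and 8 cytosolic aminoacyl-tRNA synthetases. Vldlr, a lipoprotein receptor gene, is counted with the regulators. Of the 36 names, 35 stood among the 27507 gene identifiers of the deposited table, and Mars1 was found there under its older symbol Mars. A total of 35 genes reached 10 normalized counts in at least 3 of the 6 libraries and were tested for a difference between the groups, Mars included, and Cbs did not. RNA came from L929, an established line of mouse fibroblasts, in 3 samples labelled STING KO and 3 control samples whose genotype label is WT. STING is the endoplasmic reticulum adaptor that relays the cyclic dinucleotide made by the DNA sensor cGAS. The labels name no treatment, so the comparison asks how these genes differ with STING loss in cells for which no stimulus is stated. How the knockout was made, and whether it is 1 clone, is not given in the sources used here.

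ATF4 is the transcription factor of the integrated stress response. Kinases that sense uncharged tRNA, unfolded protein, double-stranded RNA or haem shortage phosphorylate the initiation factor eIF2, which lowers general translation and raises translation of the Atf4 mRNA. ATF4 then switches on genes that make, import and charge amino acids, together with feedback regulators that end the response. Because ATF4 is controlled largely at translation, the level of its mRNA does not measure its activity, and the RNA of its target genes is the usual readout in transcriptome data.

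ATF4 binds DNA as a dimer, often with a C/EBP protein, at a composite element whose core reads TGATGNAA, or TTNCATCA on the other strand. These letters were searched on both strands of RefSeq promoter windows of GRCm38.p6, each covering 250 bases before to 50 bases after a start site. Of the 28 genes of the list that have such a window, 10 held the core, or 35.7%, against 4.51% of all 27025 genes with a window. Counted by window, the shares were 28.6% of 35 and 3.97% of 32851. The 10 genes were Aars, Asns, Chac1, Gars, Nupr1, Pycr1, Slc1a4, Tars, Trib3 and Vldlr, and Aars held 2 matches, which did not overlap. A match of 8 letters describes the window and shows no binding. The 250 bases upstream of the start are printed for 4 of them, with the core in capitals: Asns and Chac1 as much-used reporters of ATF4, and Nupr1 and Pycr1 because their RNA is followed closely below. They are Asns at chr6:7693210-7693459 on the minus strand, Chac1 at chr2:119350992-119351241 on the plus strand, Nupr1 at chr7:126625471-126625720 on the minus strand and Pycr1 at chr11:120643749-120643998 on the minus strand.
Asns: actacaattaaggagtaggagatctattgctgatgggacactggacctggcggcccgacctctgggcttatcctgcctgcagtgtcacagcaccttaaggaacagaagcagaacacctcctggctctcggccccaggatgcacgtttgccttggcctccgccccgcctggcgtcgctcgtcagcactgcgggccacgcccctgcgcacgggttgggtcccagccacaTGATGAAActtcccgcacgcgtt
Chac1: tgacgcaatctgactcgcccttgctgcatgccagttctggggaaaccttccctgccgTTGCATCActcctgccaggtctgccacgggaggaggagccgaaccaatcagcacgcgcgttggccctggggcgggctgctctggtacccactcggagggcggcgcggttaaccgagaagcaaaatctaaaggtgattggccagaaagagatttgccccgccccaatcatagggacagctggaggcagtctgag
Nupr1: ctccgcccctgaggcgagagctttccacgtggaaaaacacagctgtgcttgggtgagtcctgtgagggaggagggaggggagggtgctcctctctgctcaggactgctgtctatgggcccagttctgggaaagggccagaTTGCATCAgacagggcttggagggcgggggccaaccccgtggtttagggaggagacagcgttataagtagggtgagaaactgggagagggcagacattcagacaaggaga
Pycr1: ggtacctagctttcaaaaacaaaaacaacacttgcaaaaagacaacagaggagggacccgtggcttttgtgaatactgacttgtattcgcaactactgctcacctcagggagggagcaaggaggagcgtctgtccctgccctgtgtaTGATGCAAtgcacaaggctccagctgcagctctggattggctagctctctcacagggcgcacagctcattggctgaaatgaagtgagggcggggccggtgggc
The core begins 23 bases before the start site in Asns and reads TGATGAAA there. It begins 193 bases before the start in Chac1 and 110 bases before it in Nupr1, as TTGCATCA in both, and 103 bases before it in Pycr1, as TGATGCAA.

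Values are normalized counts, that is gene counts divided by a size factor of each library, and the library totals ran from 14382072 to 14526606. The targeted gene, listed under its older symbol Tmem173, had a mean of 85.4 ± 6.96 normalized counts in STING KO and 318 ± 10.1 in control (SD, n = 3 each; limma adjusted p = 9.72e-06), which goes with the labels of all 6 libraries. Across the table limma called 32 of 12408 genes lower in STING KO, or 0.258%, and 0 genes higher, with 0.05 as the limit for the p adjusted by Benjamini and Hochberg. At an unadjusted limma p at or under 0.05 there were 394 lower and 397 higher. By the adjusted p in the authors' deposited table, 41 of 13942 genes were called, or 0.294%. Of 14 fibroblast markers 11 were abundant enough to be tested, with Col1a1 at 10264 to 12691 and Vim at 79614 to 103473 normalized counts, and Thy1 was low, at 28.1 to 59.6. Twist1 was at 0 in each STING KO library and at about 1 in each control library, and Dcn and Lum were at most 4.99 outside STING KO replicate 1 (32.7 and 11.9) and control replicate 3 (94.4 and 31.8). STING KO replicate 1 and control replicate 3 also held transcripts of hepatocytes, with 23 such markers at 5754 and 6383 normalized counts in sum, against 372 to 849 in the other 4 libraries. Markers of macrophages and leukocytes set these libraries apart little: 11 of them were at 1007 and 950 in sum, against 811 to 949 in the others. Of these, Lyz2 was highest there, at 71.3 and 97.4, against 16.0 to 22.1. Cd68 was instead highest in STING KO replicate 3, at 860, and Cd14 was at 46.5 and 19.9 there, against 12.9 to 38.9. With RNA from whole cultures, fewer cells with a transcript and less of it per cell cannot be told apart. The labels do not state whether the 3 samples of a group were grown separately, so each p reflects only how far these samples scatter, and that scatter may be technical.

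None of the 35 tested genes passed the threshold in either direction, and their RNA stayed within narrow limits. By limma 0 were called, against 0.258% of all genes tested, and the lowest adjusted p was 0.728. At that share, a count of 0 among 35 genes is near the background. At an unadjusted limma p at or under 0.05 stood 4 genes, or 11.4%, against 6.37% of all genes tested: Atf5, Nupr1 and Pycr1 with a positive sign (3.2% of all genes) and Slc7a1 with a negative one (3.18%). limma-voom also called 0, with the same 4 genes at an unadjusted p at or under 0.05, and the authors' deposited test called 0, with 5. The median log2 fold change, taken as STING KO over control here and below, was 0.01 over these genes and -0.00 over all genes tested, with 18 positive and 17 negative signs. The log2 fold changes ran from -0.20 for Slc7a1 to 0.25 for Pycr1, and 28 of 35 lay within 0.1 of 0. The 95% intervals of all 35 lay within 1.5-fold of no change in either direction, and those of 29 within 1.25-fold, against 85.4% and 61.5% of all genes tested. Intervals narrow with depth: among the genes with a mean of at least 1000 normalized counts, 23 of 26 in the list, or 88.5%, and 88.1% of 3932 in the table lay within 1.25-fold. Groups did not overlap for 4 of 35 genes, or 11.4%, against 12.1% of all genes tested. All 4 were higher in STING KO, and over all genes tested 5.76% were higher and 6.32% lower without overlap.

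**Figure D1:**
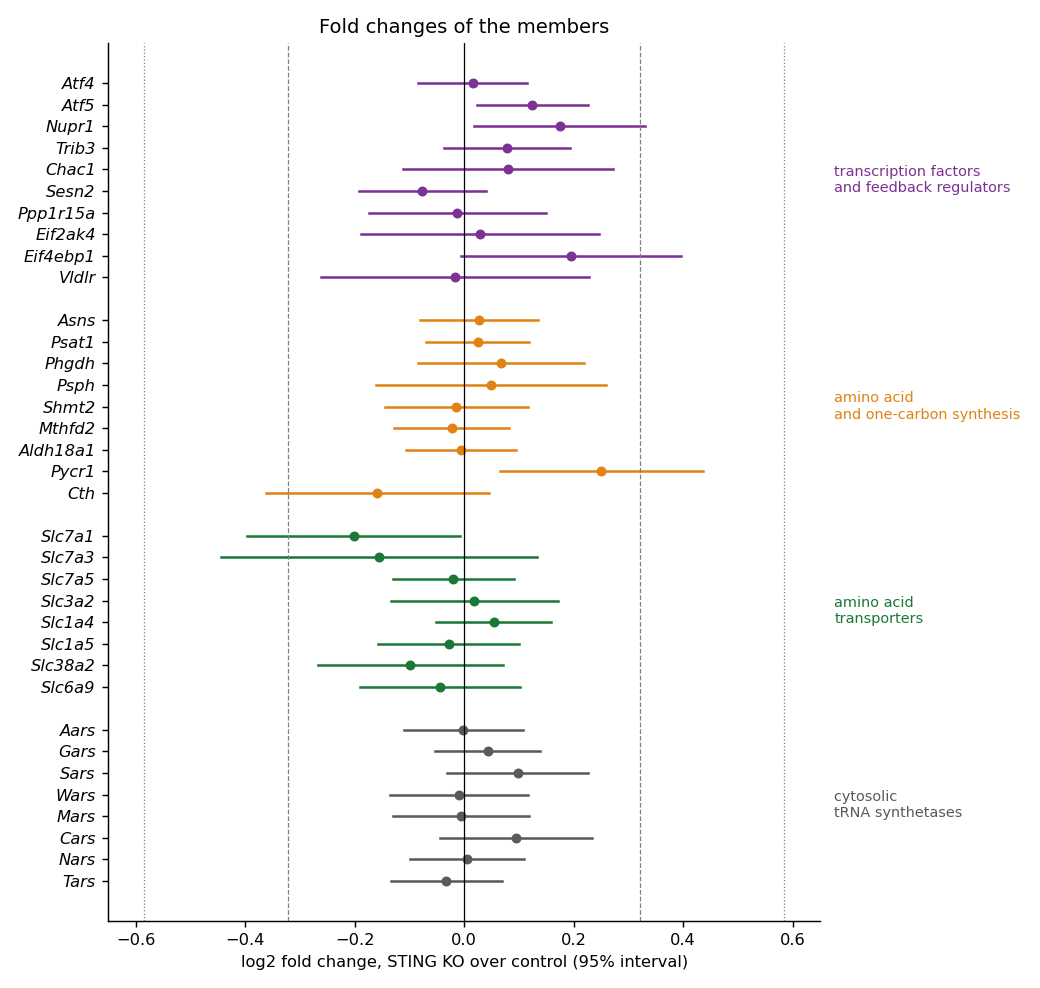
Log2 fold changes (STING KO over control) for the 35 tested genes, grouped by role, with bars for the 95% intervals of limma (n = 3 each). The dashed and dotted lines mark changes of 1.25-fold and 1.5-fold; every interval ends inside the dotted lines, and those of Atf5, Nupr1, Pycr1 and Slc7a1 do not reach 0.

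Many genes of the pathway, but not all, were strongly expressed in these cells. Per kilobase of transcript, the median gene of the list stood at percentile 90.0 of all genes tested. By role the median was percentile 81.4 for regulators, 93.8 for synthesis enzymes, 82.8 for transporters and 92.8 for synthetases. Ppp1r15a, Chac1 and Pycr1 were in the middle, at percentiles 59.9, 54.7 and 53.4, and Eif2ak4 was at 39.0. Atf4 itself had 5518 normalized counts per kilobase, at percentile 99.2, and Psat1 had 3901, Nars 3595, Slc38a2 3526 and Asns 3370. At the low end, Vldlr had 50.6 and Slc7a3 30.0 normalized counts per kilobase, and Slc7a3 stood at percentile 18.3. Among the synthetases the lowest was Cars, at 583 per kilobase. All 36 genes together took 0.951 ± 0.00782% of the library total in STING KO and 0.946 ± 0.00566% in control (SD, n = 3 each). The shares overlapped, at 0.946%, 0.946% and 0.960% in the STING KO libraries and 0.950%, 0.949% and 0.939% in the control libraries.

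**Figure D2:**
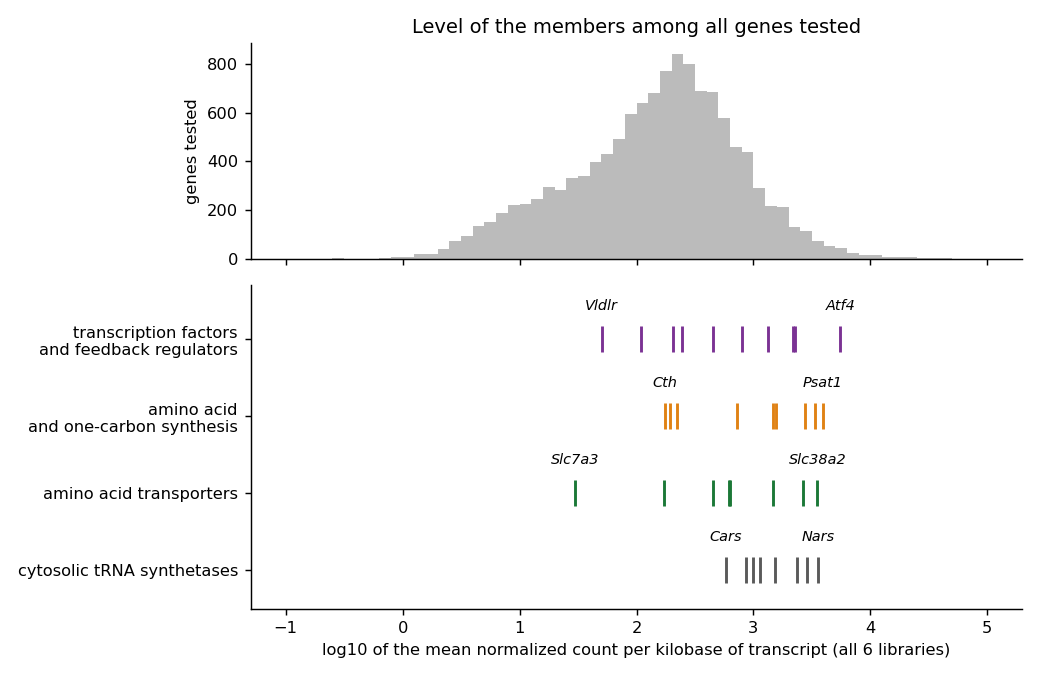
Distribution of the mean normalized count per kilobase over all genes tested (upper panel, log10 axis, mean of all 6 libraries) and the place of each of the 35 tested genes in it (lower panel, 1 tick a gene, lowest and highest of each role named). Atf4 stands highest, at 5518 per kilobase, and Slc7a3 lowest, at 30.0.

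Atf4 had nearly equal RNA levels in both groups. It lies on chromosome 15 at 80255184 to 80257541 of GRCm38, on the plus strand, and was at 9531, 9298 and 9877 normalized counts in STING KO, against 9404, 9733 and 9266 in control. The ranges of the groups overlapped, with STING KO replicate 3 above and control replicate 3 below the shared range. The log2 fold change was 0.02 (SE 0.04, limma adjusted p = 0.922), with a 95% interval from 0.943-fold to 1.08-fold. Atf5, a related factor whose mRNA is also translated under eIF2 phosphorylation, was among the 4 genes with the smallest p-values. Its normalized counts were 4253, 4254 and 4292 in STING KO, against 3780, 4040 and 3925 in control. All STING KO libraries lay above all control libraries, and the STING KO values were closer to each other (SD 22.1) than the control values (SD 130). The log2 fold change was 0.12 (SE 0.05), at a limma unadjusted p of 0.0212 and an adjusted p of 0.738, so the difference did not survive adjustment over all genes.

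Nupr1, a small nuclear protein induced by stress, had 1142, 1159 and 1241 normalized counts in STING KO, against 986, 1146 and 1011 in control. Control replicate 2 reached into the STING KO range, and the other 2 control libraries lay below it. The log2 fold change was 0.17 (SE 0.07, limma adjusted p = 0.738). Eif4ebp1, the translation repressor that mTORC1 switches off, had 4486, 4219 and 5268 in STING KO, against 3970, 4480 and 3736 in control. STING KO replicate 3 was far above the rest, and control replicate 2 lay between the other STING KO libraries. Its log2 fold change was 0.20 (SE 0.09, limma adjusted p = 0.738).

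The feedback genes did not pass the test either, nor did the remaining genes grouped as regulators. Trib3, a pseudokinase that binds and restrains ATF4, had 1657, 1646 and 1718 normalized counts in STING KO, against 1584, 1639 and 1534 in control. These groups did not overlap, but STING KO replicate 2 and control replicate 2 were nearly level, and the log2 fold change was 0.08 (SE 0.05, limma adjusted p = 0.741). Chac1, an enzyme that degrades glutathione and one of the sharpest responders to ATF4, had 330, 328 and 377 in STING KO, against 307, 350 and 321 in control. Control replicate 2 lay inside the STING KO range. Ppp1r15a, the phosphatase subunit GADD34 that reverses eIF2 phosphorylation, averaged 679 ± 32.6 in STING KO and 685 ± 52.1 in control (SD, n = 3 each). Sesn2, a leucine sensor upstream of mTORC1, averaged 1530 ± 49.9 in STING KO and 1613 ± 41.0 in control (SD, n = 3 each; limma adjusted p = 0.741). Eif2ak4, the kinase GCN2 that senses uncharged tRNA, averaged 576 ± 68.4 in STING KO and 563 ± 46.3 in control (SD, n = 3 each). Vldlr, a lipoprotein receptor, had 379, 465 and 359 normalized counts in STING KO, against 385, 378 and 451 in control. STING KO replicate 2 and control replicate 3 stood above the rest, the groups overlapped, and the unadjusted limma p of 0.876 was the largest of the regulators. Of the 10 genes grouped as regulators, Vldlr included, 7 had a positive sign, at a median log2 fold change of 0.05.

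**Figure D3:**
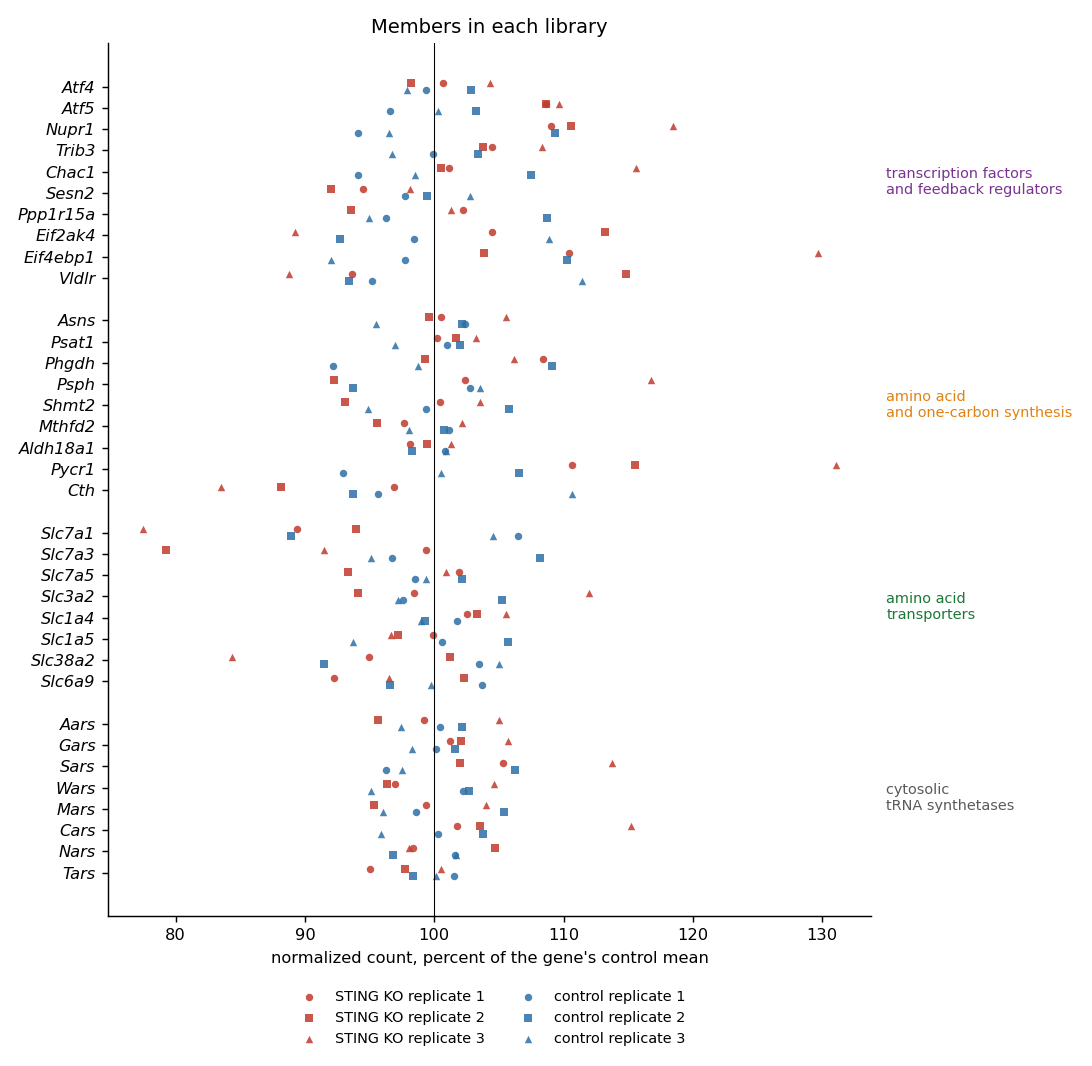
Normalized counts of the 35 tested genes in each of the 6 libraries, as percent of the gene's control mean, with STING KO in red above control in blue in each row and a marker shape for each replicate number. Values run from 77.5% for Slc7a1 to 131% for Pycr1, both in STING KO replicate 3, and the groups overlap in all genes except Atf5, Trib3, Pycr1 and Slc1a4.

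Among the synthesis enzymes the largest difference was in the last step of proline synthesis. Pycr1, a pyrroline-5-carboxylate reductase (chromosome 11, 120635712 to 120643769, minus strand, GRCm38), had 573, 598 and 679 normalized counts in STING KO, against 481, 552 and 521 in control. All STING KO libraries lay above all control libraries. The level in STING KO was 119% of control, at a log2 fold change of 0.25 (SE 0.08), a limma unadjusted p of 0.0132 and an adjusted p of 0.728. Aldh18a1, which catalyses the first step of the same route, had the steadiest RNA of the list. It was at 2522, 2554 and 2603 in STING KO, against 2591, 2525 and 2592 in control, so that its highest library was 1.03 times its lowest. The first and last step of the proline route had log2 fold changes of -0.01 and 0.25, and the difference between them was not tested.

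Serine synthesis and the one-carbon enzymes it feeds overlapped between the groups. Psat1, the aminotransferase of the pathway and its most abundant RNA, had 10144, 10290 and 10449 normalized counts in STING KO, against 10222, 10327 and 9817 in control. Phgdh, the entry enzyme, averaged 2837 ± 130 in STING KO and 2711 ± 231 in control, and Psph, the final phosphatase, averaged 395 ± 46.9 in STING KO and 381 ± 20.7 in control (SD, n = 3 each). Shmt2, which passes serine carbon to folate in mitochondria, averaged 6315 ± 344 in STING KO and 6377 ± 348 in control. Mthfd2, the next mitochondrial folate enzyme, averaged 3226 ± 110 in STING KO and 3276 ± 55.5 in control (SD, n = 3 each). Asns, asparagine synthetase, had 6765, 6703 and 7107 in STING KO, against 6890, 6875 and 6429 in control, with a 95% interval from 0.946-fold to 1.10-fold. The adjusted limma p of these 6 genes ran from 0.783 for Phgdh to 0.945 for Shmt2.

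Of the transsulfuration enzymes that make cysteine, Cth was far more abundant than Cbs in both groups. Cth, cystathionine gamma-lyase, had 323, 294 and 278 normalized counts in STING KO, against 318, 312 and 369 in control. STING KO replicate 1 lay inside the control range, and the log2 fold change was -0.16 (SE 0.09, limma adjusted p = 0.738). Cbs, cystathionine beta-synthase, was near the detection limit. It had 10.89, 7.965 and 1.004 in STING KO and 2.995, 0.998 and 5.961 in control, and was not tested. The highest values of Cbs and of Cth within each group were in STING KO replicate 1 and control replicate 3, the libraries with hepatocyte transcripts. Alb, serum albumin, was at 2552 and 2780 in them. It was at 268 and 113 in the remaining STING KO libraries and 243 and 101 in the remaining control libraries. The part of hepatocyte RNA in the Cbs and Cth values was not tested.

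Transporter RNA had more negative signs, 6 of 8, with a median log2 fold change of -0.04. Slc7a1, the main carrier for arginine and lysine (chromosome 5, 148327410 to 148399904, minus strand, GRCm38), had 4332, 4553 and 3756 normalized counts in STING KO, against 5162, 4310 and 5069 in control. Control replicate 2 lay inside the STING KO range and below STING KO replicates 1 and 2. The log2 fold change was -0.20 (SE 0.09), at a limma unadjusted p of 0.0433 and an adjusted p of 0.738. Slc7a3, a related carrier of low abundance, had 86.1, 68.7 and 79.3 in STING KO, against 83.9, 93.8 and 82.5 in control, with the widest interval below no change of the list (0.735-fold to 1.10-fold). Slc38a2, the sodium-coupled transporter of neutral amino acids and the most abundant of the group, had 16124, 17184 and 14325 in STING KO, against 17576, 15540 and 17831 in control, and the groups overlapped.

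Slc7a5 and Slc3a2 encode the light and heavy chains of the leucine transporter complex. Slc7a5 averaged 5182 ± 245 normalized counts in STING KO and 5250 ± 98.2 in control (SD, n = 3 each). Slc3a2 had 4687, 4482 and 5331 in STING KO, against 4647, 5010 and 4629 in control. STING KO replicate 3 was the highest and STING KO replicate 2 the lowest, and the unadjusted limma p of 0.791 was the largest of the transporters. The ratio of Slc7a5 to Slc3a2 per kilobase was 0.590, 0.565 and 0.514 in STING KO, against 0.576, 0.553 and 0.583 in control. Slc1a4, a carrier of alanine, serine and cysteine, had 1780, 1794 and 1833 in STING KO, against 1766, 1724 and 1719 in control. The groups did not overlap, yet the log2 fold change was 0.05 (SE 0.05, limma adjusted p = 0.756). Slc1a5, the glutamine carrier, averaged 1699 ± 30.0 in STING KO and 1735 ± 105 in control. Slc6a9, a glycine transporter, averaged 589 ± 30.6 in STING KO and 608 ± 21.8 in control (SD, n = 3 each).

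Among the cytosolic tRNA synthetases all 8 had a log2 fold change within 0.1 of 0 and a 95% interval within 1.25-fold in both directions. Sars, which charges serine tRNA, had the smallest p of the role. It had 8611, 8336 and 9297 normalized counts in STING KO, against 7869, 8685 and 7968 in control, with control replicate 2 inside the STING KO range (log2 fold change 0.10, SE 0.06, limma adjusted p = 0.738). Aars, for alanine, had the largest p. It had 8759, 8444 and 9271 in STING KO, against 8867, 9018 and 8599 in control, a 95% interval from 0.927-fold to 1.08-fold. Nars, for asparagine, was the most abundant of the role per kilobase, at 9688, 10314 and 9657 normalized counts in STING KO, against 10004, 9531 and 10011 in control. Wars, for tryptophan, is known to be induced by interferon as well. It averaged 2083 ± 96.7 in STING KO and 2097 ± 89.5 in control (SD, n = 3 each), at 99.3% of control. Cars, for cysteine, averaged 1939 ± 133 in STING KO and 1815 ± 72.1 in control (SD, n = 3 each). Gars for glycine, Mars for methionine and Tars for threonine were at 103%, 99.6% and 97.8% of control.

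Genes of the list with and without the core element in their promoter window overlapped in their fold changes. The 10 with a match had log2 fold changes from -0.03 to 0.25 with a median of 0.05. The 17 tested genes that have a window without a match ran from -0.20 to 0.12 with a median of -0.01. This difference was not tested.

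Replicate 3 of STING KO carried many of the highest values. It was the highest of the 6 libraries for 19 of 35 genes, or 54.3%, against 28.4% of all genes tested. It was the lowest for 5 of them, or 14.3%, against 29.9% of all genes tested. STING KO replicate 1 was the highest for none, against 9.54%. Relative to the control mean, the mean log2 level of the synthetases was -0.00, -0.00 and 0.08 in STING KO, against 0.00, 0.03 and -0.03 in control. The synthesis enzymes showed the same high library, at 0.02, -0.03 and 0.08 in STING KO, against -0.02, 0.02 and -0.00 in control. Transporters were at -0.04, -0.07 and -0.07 in STING KO, against 0.02, -0.01 and -0.01 in control, and regulators were at 0.04, 0.05 and 0.08 in STING KO, against -0.04, 0.04 and -0.00 in control. Over all genes tested this mean was 0.01, 0.00 and -0.02 in STING KO, against -0.00, -0.01 and 0.01 in control. The transporter libraries of the groups did not overlap in this mean, and the regulator libraries did. As a share of the library total, the same 8 transporters overlapped, at 0.240%, 0.245% and 0.226% in STING KO, against 0.255%, 0.237% and 0.255% in control. Genes with longer transcripts tended to have lower fold changes, with a Spearman correlation of -0.37 across the 35 genes and -0.40 across 12406 genes, all measured in the same 6 libraries. Libraries of 1 group differed with length to a like degree. For STING KO replicate 3 minus the other STING KO libraries the correlation was -0.42 across the 35 genes and -0.46 across all, and for control replicate 3 minus the other controls it was 0.33 and 0.34. The part of transcript length in these values was not tested.

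Other genes of the integrated stress response and of amino acid handling were described from 8 further lists, with 1 called gene among them. Since 0.258% of all genes tested were called, a count of 0 in a list of this size is near the background. Of 19 tested genes for eIF2, its kinases, its exchange factor eIF2B and its phosphatases, 0 were called, and the median log2 fold change was -0.04. Oma1, the mitochondrial protease that relays mitochondrial stress to the eIF2 kinase HRI, had the smallest p. It had 49.5, 50.8 and 52.2 normalized counts in STING KO, against 77.9, 71.8 and 70.5 in control. All STING KO libraries lay below all control libraries, but the adjusted p was 0.340 by limma (log2 fold change -0.53, SE 0.12). Next was Impact, an inhibitor of GCN2, at 1524 ± 93.0 in STING KO and 1724 ± 46.3 in control (SD, n = 3 each; limma adjusted p = 0.722). Ppp1ca, a catalytic subunit of the phosphatase, is listed at 0 in all 6 libraries, although it is a widely used gene, so a value of 0 in this table can be a failed estimate.

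Among bZIP partners of ATF4 and stress factors, 1 of 12 tested genes was called, against 0.258% of all genes tested. This was Cebpd, encoding C/EBP delta, at 452 ± 25.3 normalized counts in STING KO and 827 ± 36.9 in control (SD, n = 3 each; log2 fold change -0.87, SE 0.07, limma adjusted p = 0.000429). Nfe2l1, a factor that induces proteasome genes, was at 4568 ± 37.7 in STING KO and 5159 ± 61.4 in control (SD, n = 3 each), did not overlap between the groups and had an adjusted p of 0.340 by limma. The median log2 fold change of the 12 was -0.07. Lower in STING KO without overlap were 4 of them, or 33.3%, against 6.32% of all genes tested. Cebpb, another C/EBP gene of these 4, was at 1417 ± 128 in STING KO and 1685 ± 54.0 in control (SD, n = 3 each). Nfe2l2 was at 3842 ± 134 in STING KO and 4321 ± 100 in control (SD, n = 3 each). Their limma adjusted p was 0.531 and 0.535. Ddit3, encoding CHOP, was named after its values were seen, as a standard stress reporter: it had 593, 546 and 686 in STING KO, against 545, 701 and 598 in control. Of 21 tested further ATF4 target genes 0 were called, with Gdf15, a stress-induced hormone, at 586 ± 23.2 in STING KO and 662 ± 25.6 in control, and Slc7a11, the cystine importer, at 318 ± 42.2 in STING KO and 381 ± 39.1 in control (SD, n = 3 each; limma adjusted p = 0.738 for both).

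The remaining lists had 0 called genes each. The 15 other cytosolic synthetase genes had a median log2 fold change of 0.03, with Iars at -0.12 (SE 0.06) and the scaffold gene Aimp1 at 0.11 (SE 0.07). The 17 mitochondrial synthetases had a median of -0.00, with Sars2 at 0.21 (SE 0.08) and Mars2 at -0.18 (SE 0.11). Of 29 tested genes of other amino acid and folate metabolism the median was 0.02. Shmt1, the cytosolic counterpart of Shmt2, was at 856 ± 48.1 normalized counts in STING KO and 982 ± 18.4 in control (SD, n = 3 each; limma adjusted p = 0.622), and Mtr, methionine synthase, had a log2 fold change of -0.19 (SE 0.07). The 12 tested other transporters had a median of -0.04. Slc7a2, which like Slc7a1 carries arginine, was at 824 ± 102 in STING KO and 1011 ± 99.3 in control (SD, n = 3 each; limma adjusted p = 0.732), and Slc7a8 had a log2 fold change of 0.19 (SE 0.07). For the 34 tested genes of amino acid sensing by mTORC1 the median was -0.03. Fnip2 and Flcn, which form the folliculin complex that acts on the Rag GTPases, had log2 fold changes of -0.35 (SE 0.11) and -0.19 (SE 0.08) at limma adjusted p of 0.712 and 0.738.

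**Figure D4:**
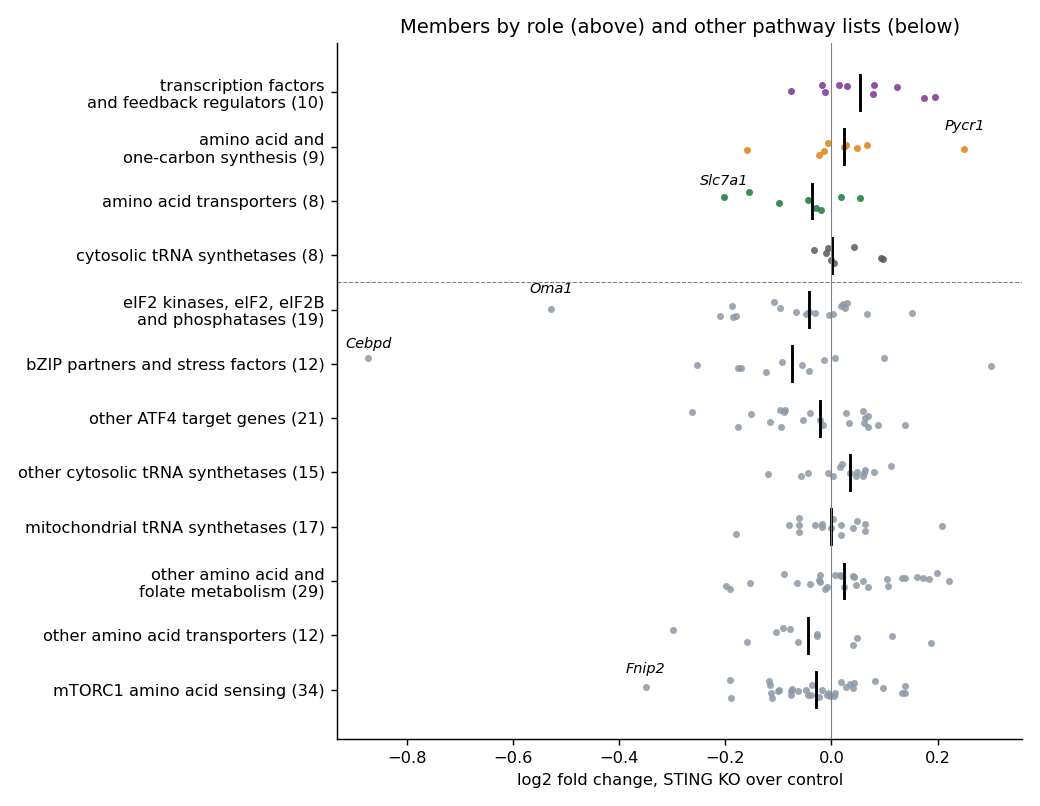
Log2 fold changes (STING KO over control) for the tested genes of the 4 roles (above the dashed line, colored) and of the 8 other lists (below it, grey), 1 point a gene, with black bars for medians and the number tested in brackets. Medians stay between -0.07 and 0.05, and Cebpd, at -0.87, is the 1 called gene.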

How the data were processed

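Poly(A) RNA of 6 L929 samples was analysed, and groups came from the sample titles. For every gene the deposited table gives a signal per library, made by the authors from gene counts and a size factor: 100% of nonzero entries equal a whole number of steps of their library within 0.01. Per the file headers, the authors also deposited their own log2 fold change, its Wald score and its p-value. The submitters' processing notes name RSEM 1.2.12, DESeq2 1.4.5, HISAT2 2.0.4 and Bowtie2 2.2.5 and the builds GRCm38 and mm10. Annotation and strand handling: not given in the sources used here. Near-identical or overlapping genes may therefore share reads.

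The first of repeated rows was kept (314 of 27821 dropped). The tests used limma 3.58.1 (R 4.3.3) with a trended prior variance on log2(normalized count + 0.1), for genes at 10 or more in at least 3 samples, with no covariate and Benjamini-Hochberg adjustment over 12408 genes. The fit was tested on simulated counts with independent libraries, a fixed dispersion and changes of 1.5-fold or more. That test does not cover changes as small as those of the listed genes. The pseudocount of 0.1 makes fold changes of low genes too small. Coordinates, lengths and GC content came from GENCODE M21 (GRCm38), with 1 transcript a gene. The genes and lists were chosen with earlier results of these data known, and the subset with a mean of at least 1000 was chosen after seeing the data. Per-library values are given for the genes of each role with the smallest p, the largest p and the highest level and for any at an unadjusted p of 0.05. From other lists, called genes are named and otherwise the 2 with the smallest p. Further genes with per-library values (Eif4ebp1, Trib3, Chac1, Asns, Cth, Cbs, Slc7a3 and Slc1a4), and Nfe2l1, Nfe2l2, Cebpb and Ddit3, were picked after their values were seen.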

Additional observations from a re-analysis of the deposited data

How the results depend on the processing

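None of the 35 tested genes was called under any of 16 alternatives, which were other scalings (upper quartile, TMM, equal totals), a pseudocount of 1, no filter or a stricter one, limma-voom, the authors' deposited test, a replicate block, each library left out, and both libraries with hepatocyte transcripts left out. The lowest adjusted p among these 560 values was 0.357. The sign turned in 42 of them, over 15 genes; Atf5, Nupr1, Pycr1 and Slc7a1 were not among these. The median log2 fold change of the list lay between -0.02 and 0.03.

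Over all genes, the 32 lower calls became 18 with the replicate block and 12 without both libraries with hepatocyte transcripts, 11 of them shared with the 32. Leaving out 1 library gave 21 to 35 lower and 0 to 2 higher calls, with 21 lower without control replicate 1 and 2 higher without control replicate 2. The authors' test has 6 higher. The call of Tmem173 held under all 16. The values showed no pairing by replicate number: deviations of libraries with the same number correlated at -0.18, -0.18 and -0.49, and 0 libraries correlated best with their own number. With 3 libraries a group, such correlations cannot exclude a pairing. The 2 planned count models on whole reads were not run, although the deposited values were whole multiples of a step in each library. Counts of 3 libraries a group limit precision: intervals of the listed genes reach up to 1.36-fold.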
